A study of Caenorhabditis elegans with 12 samples.

Results

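Cuticlin genes were followed across 4 genotypes of the nematode Caenorhabditis elegans. The genes were chosen by name alone: every protein-coding gene of the deposited table whose name is cut-, cutl- or noah- followed by a number. The rule found 37 genes, 6 of them cut genes, 29 cutl (cuticlin-like) genes and 2 noah genes, among 19994 protein-coding genes and 46936 genes in all. RNA of whole animals was sequenced in 12 libraries, 3 each of daf-2lf;skn-1gf double mutants, daf-2lf mutants, skn-1gf mutants and WT worms. The gene daf-2 encodes the insulin/IGF-1 receptor and skn-1 a transcription factor related to mammalian Nrf proteins, with lf standing for loss and gf for gain of function. All worms ate OP50 bacteria on NGM plates, and the double mutant carries both daf-2lf and skn-1gf. The labels name no allele, age or larval stage, and they do not say whether replicates were separate cultures, so each p-value measures only the spread between these libraries, which may be technical.

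The nematode cuticle is an extracellular coat that the epidermis (hypodermis and seam cells) makes anew at each moult. Its soluble part is mostly collagen, and cuticlins are named for the insoluble residue left when the collagens are extracted. Most cuticlins carry a zona pellucida (ZP) domain, a module with which secreted or membrane-bound proteins polymerise into filaments, and several are needed for the alae, the ridges that seam cells build on the first larval stage, the dauer larva and the adult. The dauer larva is a stress-resistant alternative larval stage, which worms enter when insulin signalling through daf-2 is low. The noah proteins are large ZP-family proteins of the apical matrix that precedes the cuticle in the embryo.

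The deposited gene descriptions listed a PAN domain, an apple-like module, for 6 of the 37 genes, noah-1, noah-2, cutl-17, cutl-18, cutl-27 and cutl-28. They listed a ZP domain alone for 14 genes and a ZP domain with a von Willebrand factor A domain for 2 genes, cut-6 and cutl-23. For 15 genes they listed none of these domains, which says only that the description lacks them. The genes were spread over all 6 chromosomes, with 8 on chromosome I, 9 on II, 4 on III, 6 on IV, 5 on V and 5 on X. The nearest pairs were cutl-1 and cut-2 on chromosome V, 8835 bases apart, and cutl-28 and cutl-26 on chromosome IV, 10359 bases apart. In the table's WBcel235 coordinates cut-1 lies on the plus strand of chromosome II from 11269122 to 11271660, cut-2 on the plus strand of V from 13414949 to 13416064, cut-5 on the minus strand of X from 10333858 to 10338200, cut-6 on the plus strand of III from 10911460 to 10916665 and cutl-3 on the minus strand of X from 14994752 to 14999201.

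Total counts ran from 16779245 to 29346039 per library. One library stood apart: replicate 1 of daf-2lf correlated with the other daf-2lf libraries at 0.953 and 0.952 (Pearson, log2 CPM across genes), against 0.965 to 0.993 in the other replicate pairs. The deviation of this library from the mean of the other daf-2lf libraries fell with gene length (Spearman -0.576 across genes). Markers of spermatogenic cells (8 genes) summed to 2.68 to 3.35 CPM (counts per 1e+06 counts of the scaled library total) in daf-2lf;skn-1gf, 1.65 to 2.36 CPM in daf-2lf, 64.4 to 192 CPM in skn-1gf and 287 to 326 CPM in WT. Germ line and oocyte markers (10 genes) summed to 562 to 601 CPM in daf-2lf;skn-1gf, 308 to 589 CPM in daf-2lf, 372 to 1150 CPM in skn-1gf and 1670 to 1850 CPM in WT. Markers of intestine, body wall muscle, neurons and pharynx were present in every library, with lowest summed levels of 1620, 4250, 229 and 24.5 CPM. The adult cuticle collagens col-19 and col-7 together reached 3.56 CPM in WT and 0.591 CPM in the mutants. Spermatogenic spe-38 had 0 counts in every library of daf-2lf;skn-1gf and daf-2lf, gsp-3 in every library of daf-2lf, and col-2, a dauer cuticle collagen, in every library of skn-1gf and WT. In RNA of whole animals, fewer cells of a type and less RNA per cell cannot be told apart, and genotype cannot be told apart from a difference in stage at harvest.

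Summed over the family, cuticlin RNA was highest in the genotypes that carry daf-2lf. The 37 genes summed to 3238, 3235 and 3220 CPM in daf-2lf;skn-1gf, 3036, 2897 and 2801 CPM in daf-2lf, 1556, 1492 and 1939 CPM in skn-1gf and 1711, 1361 and 2024 CPM in WT. The 6 libraries with daf-2lf thus all lay above the 6 without it, and skn-1gf overlapped with WT. Only 3 genes, noah-1, noah-2 and cut-2, held 90.9% of the summed mean level, and without them the other 34 genes summed to 241 ± 7.05 CPM in daf-2lf;skn-1gf, 220.5 ± 32.8 CPM in daf-2lf, 186 ± 9.60 CPM in skn-1gf and 219 ± 7.55 CPM in WT (mean ± SD, n = 3 each). Per kilobase of deposited gene length, the mean level over the genotypes was 505 CPM for cut-2, 303 CPM for noah-2 and 240.5 CPM for noah-1, and every other cuticlin gene was at or below 14.8 CPM per kilobase. The 5 genes too low to test are described by counts alone: cutl-1 with at most 9 counts in a library, cutl-2 with at most 13, cut-3 with at most 9, cutl-13 with at most 13 and cutl-7 with at most 2. The other 32 passed the filter on low counts.

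**Figure D1:**
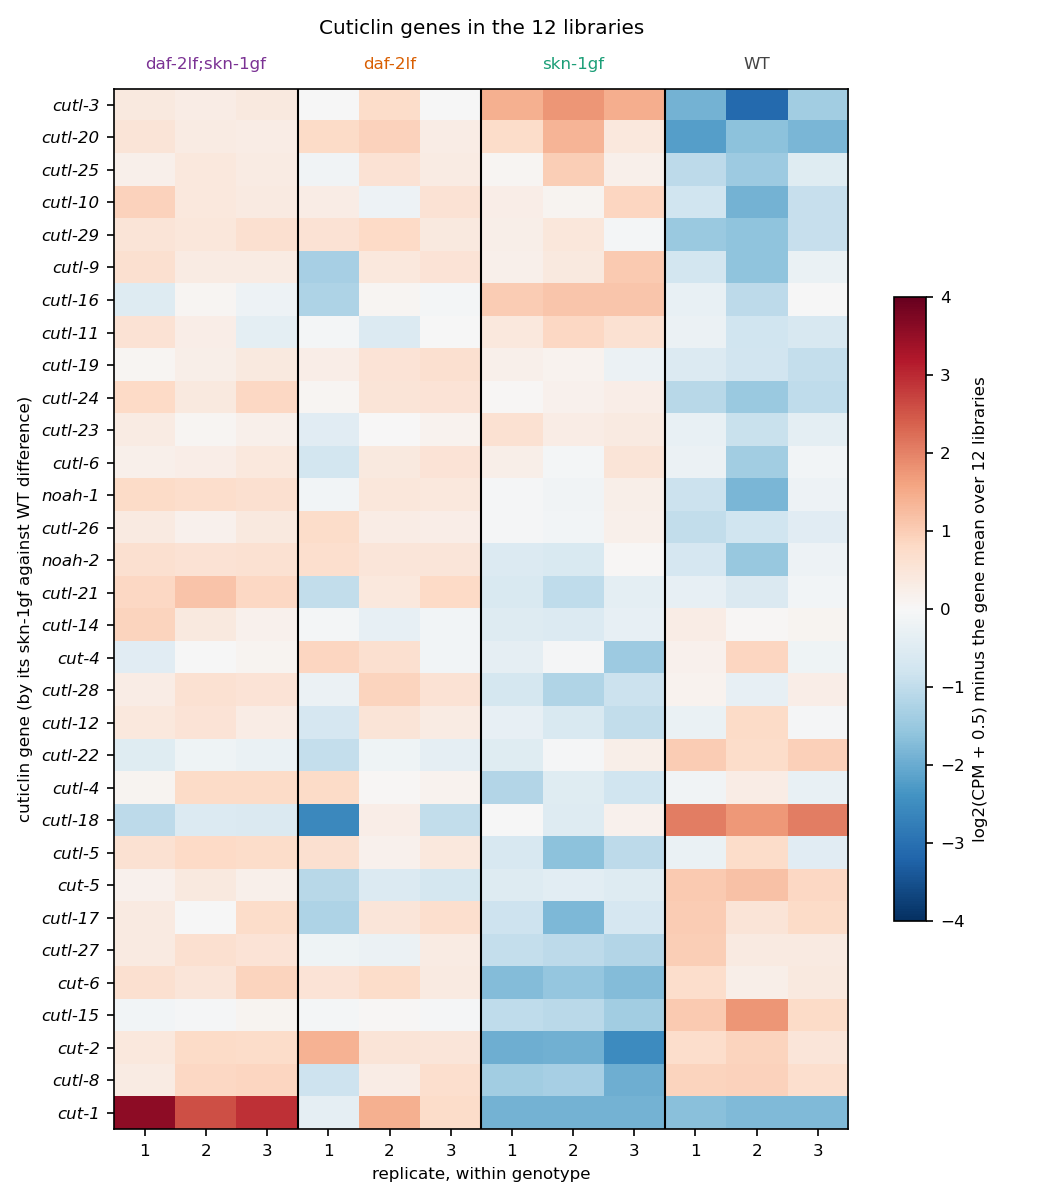
Level of the 32 tested cuticlin genes (rows) in the 12 libraries (columns, grouped by genotype), as log2(CPM + 0.5) minus the gene's mean over all libraries, red above and blue below that mean; rows follow the skn-1gf against WT difference. The upper rows are blue in the WT columns, the lower rows are blue in the skn-1gf columns, and cut-1, the bottom row, is red in all 3 double-mutant columns.

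The order of the genotypes differed from gene to gene. Of the 32 tested genes, 13 had their highest mean in daf-2lf;skn-1gf, 5 in daf-2lf, 7 in skn-1gf and 7 in WT. The lowest mean lay in daf-2lf;skn-1gf for 1 gene, in daf-2lf for 2, in skn-1gf for 14 and in WT for 15. Replicates agreed best in the double mutant, with a median coefficient of variation of 13.5% over the tested genes, against 31.5% in daf-2lf, 23% in skn-1gf and 30.9% in WT. Replicate 2 was the lowest WT library for 20 of the 32 genes, and replicate 1 the lowest daf-2lf library for 18. Neighbours in a gene's order of genotypes are called different below only where edgeR's quasi-likelihood test, adjusted with Benjamini-Hochberg over all 15575 tested genes, gave an adjusted p under 0.05.

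The comparison named by the study, daf-2lf;skn-1gf against daf-2lf, moved few cuticlin genes: cut-1 and cut-5 were higher in the double mutant and no gene was lower. These 2 of 32 genes (6.25%) stand beside 1.62% of all tested genes called in either direction in this comparison, 1.01% called higher and 0.616% called lower. The median log2 difference of the 32 genes was 0.24, against 0.00 over all tested genes. At an unadjusted p under 0.05 there were 4 cuticlin genes, and the groups did not overlap for 6 of the 32, against 23.7% of all tested genes. DESeq2 and limma-voom with sample quality weights called 3 of the 32 genes each, all higher. Over all tested genes DESeq2 called 3.53% and limma-voom 13.5%, so the limma-voom count was no excess. The added gene was cutl-14 (log2 difference 0.74 ± 0.205 (SE), adjusted p = 0.13 by edgeR).

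The gene cut-1 encodes a ZP-domain cuticlin known from the dauer cuticle, where it lies beneath the alae. Its level was 21.5, 10.6 and 13.6 CPM in daf-2lf;skn-1gf, 0.953, 4.48 and 2.58 CPM in daf-2lf, 0 in all 3 libraries of skn-1gf and 0.0755, 0.04815 and 0.0462 CPM in WT, from 472, 233 and 389 counts in daf-2lf;skn-1gf, 19, 75 and 46 counts in daf-2lf, none in skn-1gf and 2, 1 and 1 counts in WT. Every double-mutant library lay above every daf-2lf library, and the skn-1gf and WT libraries were at or below the floor of 3 counts. The level in daf-2lf;skn-1gf was 5.74-fold that in daf-2lf (log2 difference 2.52 ± 0.465 (SE), adjusted p = 0.024). Against WT, the 140 counts of daf-2lf stood beside 4 counts, a ratio of 44.2 with an exact 95% interval of 16.9 to 165 that covers counting error only, and the difference was called (adjusted p = 0.000232). Against skn-1gf, whose libraries held 0 counts, the double mutant was at least 79.4-fold higher when skn-1gf is put at 0.191 CPM, the 3-count floor of its shallowest library (adjusted p = 9.71e-06). No fold is given for cut-1 between skn-1gf and WT, since both groups were at the floor.

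With single libraries left out, the log2 difference of cut-1 from daf-2lf lay between 2.11 and 3.11, and by limma-voom it was 1.70 (adjusted p = 0.00915). The edgeR call was lost (adjusted p 0.0533 to 0.111, log2 differences of 2.19 to 2.59) without daf-2lf replicate 3, without daf-2lf;skn-1gf replicate 1 or without daf-2lf;skn-1gf replicate 3, and the log2 difference was 3.11 (adjusted p = 0.0134) without daf-2lf replicate 2, the highest of its group. Without daf-2lf replicate 1, the library that stood apart, it was 2.11 (adjusted p = 0.0205), and with daf-2lf;skn-1gf and daf-2lf fitted alone the same log2 difference of 2.52 had an adjusted p of 0.151. Without daf-2lf replicate 2 the log2 difference between daf-2lf and WT was 4.79 (adjusted p = 0.000543). Both dauer cuticle collagens on the marker list moved with cut-1 from library to library. The collagen gene col-2 had 16.2, 10.4 and 11.2 CPM in daf-2lf;skn-1gf, 0.752, 4.66 and 2.19 CPM in daf-2lf and 0 counts in skn-1gf and WT, and col-40 had 19.87, 11.45 and 14.03 CPM in daf-2lf;skn-1gf, 0.652, 5.56 and 2.41 CPM in daf-2lf, at most 0.0449 CPM in skn-1gf and at most 0.385 CPM in WT. In all 3 genes replicate 1 was the highest double-mutant library and the lowest daf-2lf library. Between daf-2lf;skn-1gf and daf-2lf neither collagen passed the edgeR test (log2 differences 2.33 and 2.41, adjusted p = 0.11 and 0.0604), although both had an unadjusted p under 0.05, DESeq2 and limma-voom called both higher, and 1 was called without daf-2lf replicate 1. By edgeR both were higher in daf-2lf than in WT (log2 differences 8.76 and 3.76, adjusted p = 0.000773 and 0.00141), the value for col-2 being a fitted one against 0 counts. The part that a share of animals at or near the dauer stage has in the cut-1 values was not tested.

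**Figure D2:**
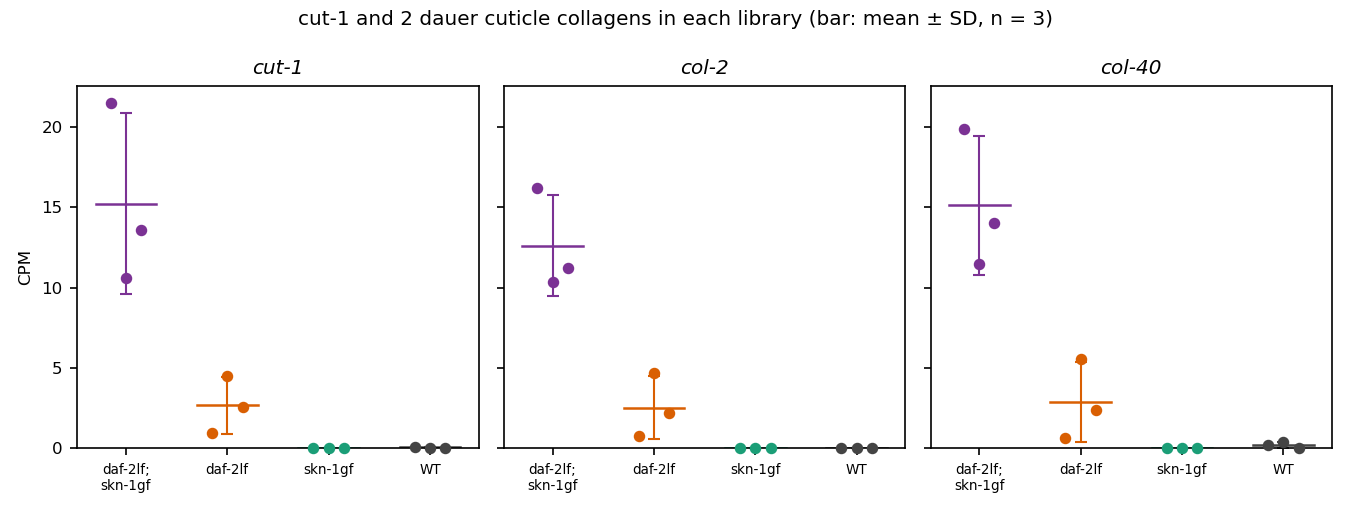
CPM of cut-1 and of the dauer cuticle collagens col-2 and col-40 in each library (points), with the mean ± SD of 3 replicates per genotype. In each panel the double-mutant libraries lie highest, between 10.4 and 21.5 CPM, the daf-2lf libraries lie between 0.652 and 5.56 CPM, and skn-1gf and WT lie at or near 0.

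The gene cut-5 encodes a cuticlin needed for the alae of first-stage and dauer larvae, and it was a low-level transcript here. It had 1.32, 1.64 and 1.36 CPM in daf-2lf;skn-1gf, 0.251, 0.598 and 0.505 CPM in daf-2lf, 0.629, 0.702 and 0.621 CPM in skn-1gf and 2.83, 3.18 and 2.4 CPM in WT, and the 12 counts behind these values ran from 5 to 75. The double-mutant libraries all lay above those of daf-2lf and of skn-1gf and below those of WT. The level was 3.2-fold higher in daf-2lf;skn-1gf than in daf-2lf (log2 difference 1.68 ± 0.318 (SE), adjusted p = 0.0182). In contrast it was 4.3-fold lower in skn-1gf than in WT (-2.10 ± 0.29 (SE), adjusted p = 0.000152) and 6.24-fold lower in daf-2lf than in WT (-2.64 ± 0.309 (SE), adjusted p = 2.07e-05). The difference between the 2 skn-1gf effects was itself called (interaction log2 3.78 ± 0.43 (SE), adjusted p = 0.000125). The call against daf-2lf was lost without any 1 of the 3 double-mutant libraries (adjusted p 0.0569 to 0.0925, log2 differences of 1.58 to 1.74) and with the 2 genotypes fitted alone (adjusted p = 0.165). Without daf-2lf replicate 1 the log2 difference was 1.37 (adjusted p = 0.0374).

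In WT worms the skn-1gf allele went with changes in most cuticlin genes, split evenly in direction. In skn-1gf against WT, 26 of the 32 tested genes passed the test (81.2%), 13 higher and 13 lower, where 43.6% of all tested genes were called, 22.6% higher and 21.0% lower. The groups did not overlap for any of the 26, and for 29 of the 32 in all, where the groups did not overlap for 67.4% of all tested genes. The 29 include cut-1, whose skn-1gf and WT libraries were at or below the floor of 3 counts. The median absolute log2 difference of the 32 genes was 1.62, against 0.62 over all tested genes. The median signed difference was -0.54, or -0.42 without cut-1, against 0.03 over all tested genes. Scaling with relative log expression (RLE) in place of TMM moved the median over all genes by more than 0.1, to -0.13, and the share of higher calls among all calls to 40.4%, against 51.8%. Under that scaling 12 cuticlin genes were higher and 15 lower.

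The genes that fell included 3 of the named cut genes. The gene cut-2 encodes a small cuticlin without a ZP domain that is cross-linked through tyrosines into the insoluble layer of the cuticle. It had 481, 611 and 591.5 CPM in daf-2lf;skn-1gf, 940.4, 512 and 499.5 CPM in daf-2lf, 91.35, 93.4 and 61.7 CPM in skn-1gf and 585, 656 and 494 CPM in WT. The skn-1gf libraries lay below all others, and the other 3 genotypes overlapped. The level was 7.04-fold lower in skn-1gf than in WT (log2 difference -2.82 ± 0.266 (SE), adjusted p = 9.08e-06), while daf-2lf;skn-1gf against daf-2lf gave -0.21 ± 0.248 (SE), adjusted p = 0.664. The ZP and von Willebrand factor A protein cut-6 is needed for the normal alae and body shape of dauer larvae. Its level was 9.96, 8.86 and 12.1 CPM in daf-2lf;skn-1gf, 9.43, 10.8 and 8.08 CPM in daf-2lf, 1.53, 1.79 and 1.53 CPM in skn-1gf and 10.5, 7.415 and 8.41 CPM in WT. As for cut-2, skn-1gf stood below the other 3 genotypes, which overlapped, and cut-6 was 5.45-fold lower than in WT (-2.45 ± 0.216 (SE), adjusted p = 5.41e-06).

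Among the cuticlin-like genes, cutl-8, whose best Swiss-Prot match is cut-6, fell about as far as cut-2. It had 5.32, 7.64 and 7.92 CPM in daf-2lf;skn-1gf, 2.11, 5.14 and 6.84 CPM in daf-2lf, 1.26, 1.34 and 0.704 CPM in skn-1gf and 8.08, 8.33 and 6.93 CPM in WT, and skn-1gf against WT gave -2.84 ± 0.401 (SE), adjusted p = 0.000187. The skn-1gf libraries were again the lowest of all. cutl-15, a ZP-domain gene, had 16.8, 17.6 and 19.5 CPM in daf-2lf;skn-1gf, 17.15, 18.8 and 17.7 CPM in daf-2lf, 8.67, 8.3 and 6.63 CPM in skn-1gf and 37.9, 63.4 and 30.9 CPM in WT; all mutants lay below WT and skn-1gf lay below the other mutants (-2.49 ± 0.244 (SE), adjusted p = 1.19e-05). cutl-17, a PAN-domain gene, had 3.41, 2.545 and 4.605 CPM in daf-2lf;skn-1gf, 0.802, 3.82 and 4.43 CPM in daf-2lf, 1.21, 0.383 and 1.41 CPM in skn-1gf and 5.665, 3.9 and 4.76 CPM in WT, with skn-1gf below WT in every library (-2.20 ± 0.549 (SE), adjusted p = 0.00754). The PAN-domain gene cutl-27 had 2.18, 2.77 and 2.51 CPM in daf-2lf;skn-1gf, 1.35, 1.255 and 2.13 CPM in daf-2lf, 0.584, 0.511 and 0.414 CPM in skn-1gf and 3.59, 2.17 and 2.17 CPM in WT, again with skn-1gf lowest and not overlapping with any other genotype (-2.39 ± 0.33 (SE), adjusted p = 0.000155). cutl-18, also with a PAN domain, had 5.68, 8.32 and 8.09 CPM in daf-2lf;skn-1gf, 1.655, 15 and 5.945 CPM in daf-2lf, 12.1, 8.55 and 13.8 CPM in skn-1gf and 52.15, 42.1 and 52.25 CPM in WT. Its WT libraries lay far above all mutant libraries (-2.08 ± 0.523 (SE), adjusted p = 0.00779), and daf-2lf overlapped with both other mutants.

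The remaining members that fell were cutl-4, cutl-5, cutl-14, cutl-22 and cutl-28, with log2 differences from -2.09 (cutl-5) to -0.65 (cutl-14). Each of these calls was lost when certain single libraries were left out. The call of cutl-4 was lost without WT replicate 1 or 2 or without skn-1gf replicate 1 or 3 (adjusted p 0.0564 to 0.116), and its log2 difference was -2.40 without skn-1gf replicate 2. The call of cutl-5 was lost without WT replicate 2 (log2 difference -1.42, adjusted p = 0.102), and without skn-1gf replicate 1 the difference was -2.95. The call of cutl-14 was lost without WT replicate 1 or skn-1gf replicate 1 or 2 (adjusted p 0.0721 to 0.0908), that of cutl-22 without skn-1gf replicate 1 (adjusted p = 0.0582) and that of cutl-28 without skn-1gf replicate 2 (adjusted p = 0.0523).

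The genes that rose in skn-1gf were noah-1 and 12 cuticlin-like genes. cutl-3 rose most: it had 9.5, 8.91 and 9.59 CPM in daf-2lf;skn-1gf, 7.17, 12.25 and 7.01 CPM in daf-2lf, 20, 25.7 and 20.3 CPM in skn-1gf and 1.59, 0.385 and 2.4 CPM in WT, lowest in WT, highest in skn-1gf and in between in both daf-2lf genotypes, with 14.9-fold more in skn-1gf than in WT (log2 difference 3.90 ± 0.44 (SE), adjusted p = 3.41e-05). cutl-20 had 20.1, 17.8 and 17.4 CPM in daf-2lf;skn-1gf, 24.3, 26.65 and 17.1 CPM in daf-2lf, 23.8, 36.8 and 19.05 CPM in skn-1gf and 2.64, 4.09 and 3.6 CPM in WT, so that every mutant library lay above every WT library (2.95 ± 0.277 (SE), adjusted p = 9.08e-06). On the WBcel235 annotation 221 bases of cutl-20 exons are shared with shc-1 on the same strand, and the handling of such reads is not given in the sources used here. cutl-25, a ZP-domain gene, had 2.14, 2.545 and 2.37 CPM in daf-2lf;skn-1gf, 1.55, 2.87 and 2.355 CPM in daf-2lf, 1.89, 4.02 and 2.11 CPM in skn-1gf and 0.604, 0.337 and 1.11 CPM in WT, with WT below all mutants (1.94 ± 0.426 (SE), adjusted p = 0.00363).

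cutl-10 had 18, 12.45 and 12 CPM in daf-2lf;skn-1gf, 11.3, 7.89 and 14 CPM in daf-2lf, 11.2, 9.89 and 17.1 CPM in skn-1gf and 5.06, 2.12 and 4.62 CPM in WT, cutl-24 had 13.8, 10.3 and 14.1 CPM in daf-2lf;skn-1gf, 8.12, 11.2 and 11.7 CPM in daf-2lf, 7.95, 8.81 and 9.4 CPM in skn-1gf and 3.32, 2.455 and 3.6 CPM in WT, and cutl-29 had 11.5, 11 and 12.7 CPM in daf-2lf;skn-1gf, 12, 14.2 and 10.5 CPM in daf-2lf, 9.48, 10.9 and 7.54 CPM in skn-1gf and 2.53, 2.26 and 3.93 CPM in WT. For all 3 genes the WT libraries lay below every mutant library, and the differences between skn-1gf and WT were 1.69 ± 0.342 (SE), adjusted p = 0.00224, 1.48 ± 0.216 (SE), adjusted p = 0.000242 and 1.68 ± 0.233 (SE), adjusted p = 0.000165, in that order. The others that rose were cutl-9, cutl-11, cutl-16, cutl-19, cutl-23 and cutl-26, with log2 differences from 0.81 (cutl-26) to 1.56 (cutl-9). The call of cutl-9 was lost without WT replicate 1 or 2 or skn-1gf replicate 2 or 3 (adjusted p 0.0507 to 0.105).

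The noah genes behaved less uniformly. noah-1 had 1412, 1339 and 1293 CPM in daf-2lf;skn-1gf, 773, 1137 and 1102 CPM in daf-2lf, 796, 742 and 962 CPM in skn-1gf and 459.9, 230.5 and 711 CPM in WT: skn-1gf lay above WT in every library, but the call at 0.83 ± 0.309 (SE), adjusted p = 0.0458 was held in 4 of 19 alternative settings only. Among the libraries left out in turn it was kept without WT replicate 3 alone; leaving out any of the other 11 gave adjusted p-values of 0.0512 to 0.114. noah-2 had 1100.0, 1052 and 1089 CPM in daf-2lf;skn-1gf, 1132, 992 and 986 CPM in daf-2lf, 489, 459.9 and 735.5 CPM in skn-1gf and 445.5, 248 and 608 CPM in WT, with overlapping skn-1gf and WT libraries and no call between them (0.37 ± 0.269 (SE), adjusted p = 0.283). Replicate 2 was the lowest WT library for both noah genes. Of the other cut genes, cut-4 had 13.1, 17.9 and 19.7 CPM in daf-2lf;skn-1gf, 33.5, 28.7 and 16.8 CPM in daf-2lf, 14.15, 17.7 and 6.295 CPM in skn-1gf and 20.7, 33.4 and 16.2 CPM in WT and passed no edgeR test, all genotypes overlapping with at least 1 other. Its skn-1gf against WT difference of -0.89 ± 0.384 (SE), adjusted p = 0.0803 was called in 6 of 19 alternatives, DESeq2 and limma-voom among them (adjusted p 0.019 to 0.314 over the 19). The count of cut-3, a cuticlin of the first-stage alae, was 2, 1 and 2 in daf-2lf;skn-1gf, 1, 2 and 1 in daf-2lf, 0, 0 and 3 in skn-1gf and 5, 6 and 9 in WT, too few for the test.

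**Figure D3:**
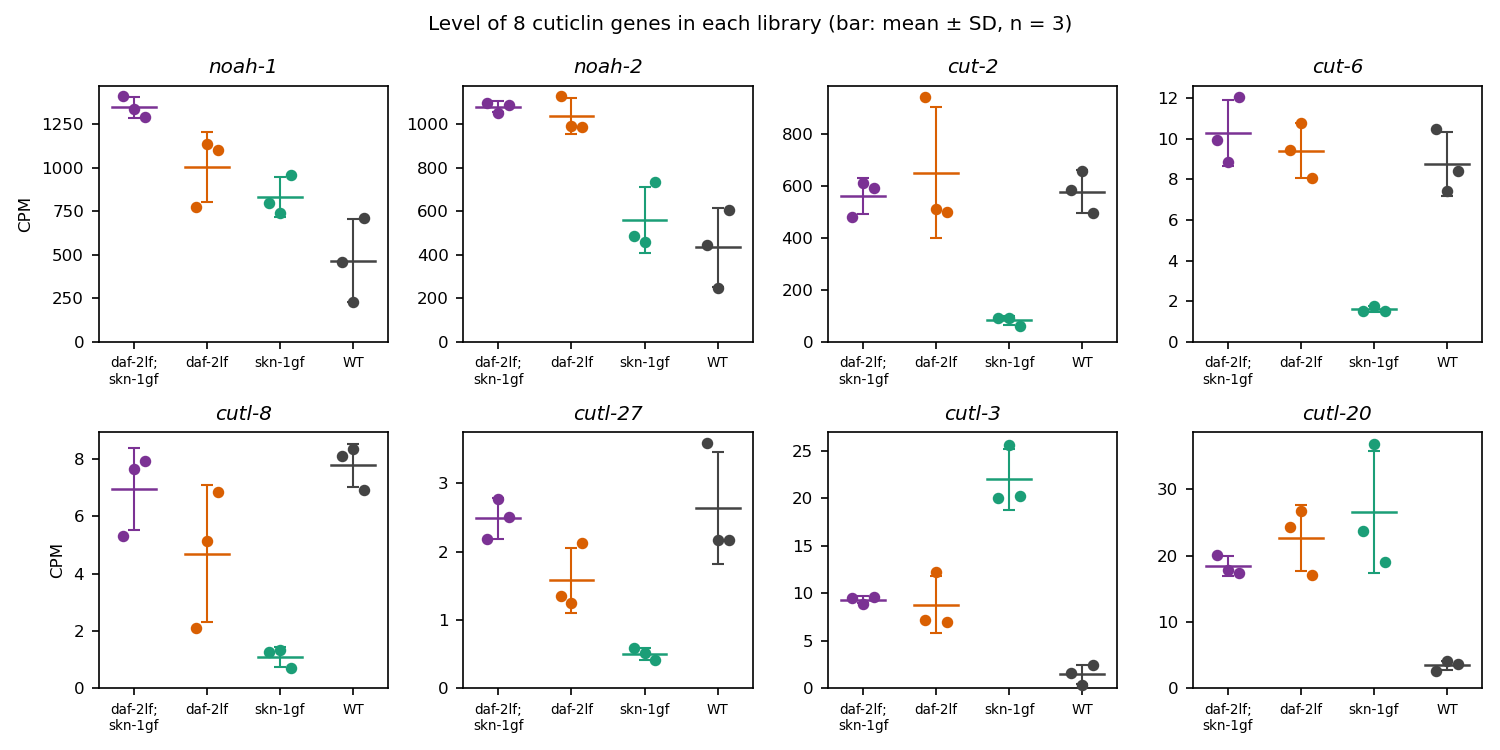
CPM of 8 cuticlin genes in each library (points), with mean ± SD of 3 replicates per genotype, in the order daf-2lf;skn-1gf, daf-2lf, skn-1gf and WT on each linear axis. cut-2, cut-6, cutl-8 and cutl-27 are lowest in skn-1gf, cutl-3 and cutl-20 are lowest in WT, and noah-1 and noah-2 are highest in the genotypes with daf-2lf.

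Markers of the epidermis, which makes the cuticle, moved in the same comparison. The summed level of its 6 markers was 567 to 692 CPM in skn-1gf and 2590 to 2900 CPM in WT, and 1 marker was higher and 3 were lower. The collagen genes dpy-13 and rol-6, which held most of the WT sum, averaged 159 and 104 CPM in skn-1gf, against 1940 and 549 CPM in WT. The fall of the sum thus followed these collagens and does not stand for all epidermal markers. The collagen gene dpy-7 and the transcription factor gene elt-3 averaged 215 and 61.7 CPM in skn-1gf, against 142 and 19.9 CPM in WT. The means of lin-26 and che-14 were 63.8 and 15.8 CPM in skn-1gf, against 76.9 and 39.0 CPM in WT. Of the 4 seam cell markers in the table, 3 were higher and 1 was lower in skn-1gf, grd-10 averaging 63.6 CPM in skn-1gf and 2.84 CPM in WT and wrt-2 averaging 50.2 CPM in skn-1gf and 121 CPM in WT. No epidermal or seam marker was at 0 counts in a whole genotype. Of the spermatogenic markers 6 of 8 were lower in skn-1gf, and of the germ line and oocyte markers 9 of 10. The part of these shifts in the cuticlin values was not tested.

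With daf-2lf present, few of these genes were called, as was so for all genes (1.62% called, against 43.6% in skn-1gf against WT). Of the 13 cuticlin genes called higher and the 13 called lower in skn-1gf against WT, none was called the same way in daf-2lf;skn-1gf against daf-2lf, 1 (cut-5) was called the opposite way and 25 were not called. These 2 comparisons share no library. The median absolute log2 difference of the 32 genes was 0.305 in the daf-2lf background, against 1.62 in WT worms, and over all tested genes it was 0.304 in the daf-2lf background, against 0.62 in WT worms. The difference between the 2 skn-1gf effects, the interaction, was called for 17 of 32 genes (53.1%), 10 positive and 7 negative, where 27.7% of all tested genes were called, 9.91% positive and 17.7% negative. A positive value means that the skn-1gf difference was more positive in the daf-2lf background.

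The 10 positive interactions all belonged to genes that had fallen in skn-1gf worms. They included cut-2 (2.60 ± 0.356 (SE), adjusted p = 0.000387), cut-6 (2.58 ± 0.288 (SE), adjusted p = 0.000114), cutl-8 (3.41 ± 0.535 (SE), adjusted p = 0.000908), cutl-15 (2.50 ± 0.332 (SE), adjusted p = 0.000321) and cutl-27 (3.05 ± 0.443 (SE), adjusted p = 0.000556). The 7 negative ones all belonged to genes that had risen, among them cutl-3 (-3.81 ± 0.575 (SE), adjusted p = 0.00071), cutl-20 (-3.24 ± 0.371 (SE), adjusted p = 0.000127), cutl-29 (-1.74 ± 0.319 (SE), adjusted p = 0.00234) and cutl-24 (-1.18 ± 0.296 (SE), adjusted p = 0.0131). The interaction and the skn-1gf against WT difference share the skn-1gf and WT libraries, so their opposite signs are not separate evidence. Under RLE scaling 13 cuticlin genes had a positive and 6 a negative call, while 48.3% of the calls over all genes were positive, against 35.8%, and the median over all genes was 0.11, against -0.05. Without daf-2lf replicate 1 the counts were 14 positive and 8 negative of 32, and 45.9% of all calls were positive.

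**Figure D4:**
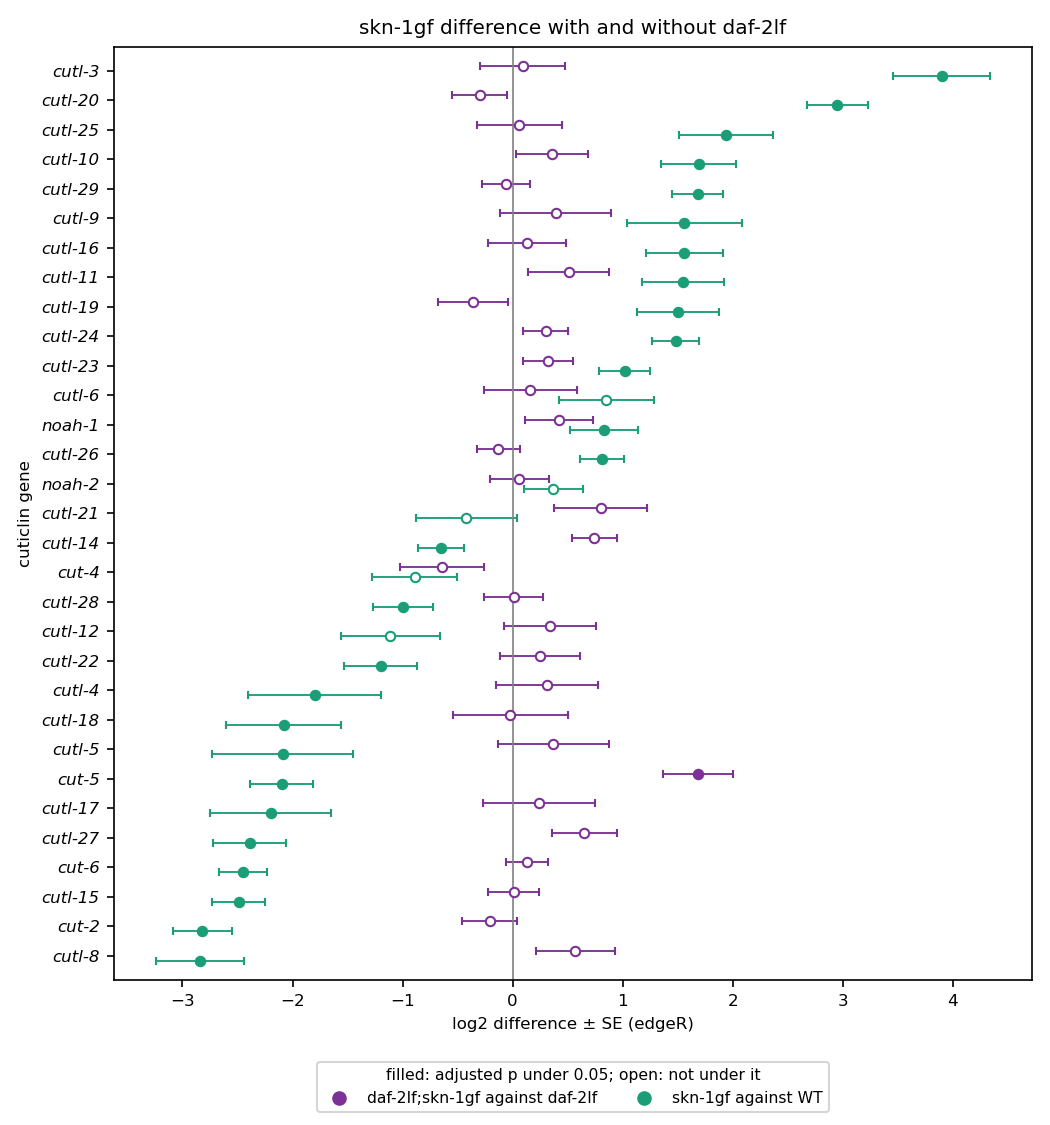
Log2 difference ± SE (edgeR) of 31 tested cuticlin genes for daf-2lf;skn-1gf against daf-2lf (purple) and skn-1gf against WT (green), filled where the adjusted p was under 0.05; cut-1 is left out because skn-1gf and WT were at its floor. The green points run from -2.84 to 3.90, and the purple ones from -0.64 to 1.68 with cut-5 as the only filled point.

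In daf-2lf against WT, 16 of the 32 tested genes passed the test (50.0%), 11 higher and 5 lower, where 52.4% of all tested genes were called, 29.5% higher and 22.9% lower. The share of cuticlin genes called was thus near that of all genes. The groups did not overlap for any of the 16, and for 18 of the 32 in all, against 61.2% of all tested genes. The median log2 difference was 0.48, or 0.46 without cut-1, against 0.15 over all genes. Under RLE scaling the median over all genes moved to -0.03, 45.2% of all calls were higher, against 56.3%, and 11 cuticlin genes were higher and 6 lower. Without daf-2lf replicate 1, 15 cuticlin genes were higher and 4 lower, and 59.5% of all tested genes were called.

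Both noah genes were higher in daf-2lf than in WT. noah-2 was 2.39-fold higher (1.26 ± 0.273 (SE), adjusted p = 0.00216) and noah-1 2.15-fold (1.10 ± 0.311 (SE), adjusted p = 0.0104), in each case with all daf-2lf libraries above all WT libraries. The call of noah-1 was lost when daf-2lf and WT were fitted without the other genotypes (adjusted p = 0.0924). The cuticlin-like genes that rose were cutl-20 (2.72 ± 0.276 (SE), adjusted p = 6.22e-06), cutl-3 (2.58 ± 0.43 (SE), adjusted p = 0.000343), cutl-19 (2.16 ± 0.362 (SE), adjusted p = 0.000359), cutl-29 (2.07 ± 0.234 (SE), adjusted p = 1.54e-05), cutl-24 (1.72 ± 0.217 (SE), adjusted p = 3.75e-05), cutl-25, cutl-10 and cutl-26, the last 3 with log2 differences of 1.71, 1.48 and 1.25. The same WT libraries served skn-1gf against WT, so the values of the 2 comparisons are not independent.

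The genes that fell in daf-2lf were cut-5, cutl-15, cutl-18, cutl-22 and cutl-27. cutl-18 fell by 2.71 on the log2 scale (-2.71 ± 0.54 (SE), adjusted p = 0.00124) and by 3.69 without daf-2lf replicate 2, its highest daf-2lf library. cutl-15 fell by 1.30 (-1.30 ± 0.233 (SE), adjusted p = 0.000564) and cutl-22 by 1.79 (-1.79 ± 0.346 (SE), adjusted p = 0.000991). The call of cutl-27 (-0.75 ± 0.293 (SE), adjusted p = 0.0494) was lost in 11 of 19 alternative settings, with an adjusted p of up to 0.253. Among them were 8 of the 12 single omissions: WT replicate 1 or 3, skn-1gf replicate 1, daf-2lf replicate 1 or 2 and each of the double-mutant libraries (adjusted p 0.0508 to 0.253). cut-2 and cut-6 passed no test in this comparison (0.17 ± 0.248 (SE), adjusted p = 0.581 and 0.10 ± 0.193 (SE), adjusted p = 0.681). Of the epidermal markers 4 of 6 were higher and none was lower in daf-2lf by edgeR. Of all tested genes 29.5% were called higher and 22.9% lower. By DESeq2 or under RLE scaling 3 of the 6 epidermal markers were higher. By edgeR 9 of 10 germ line and oocyte markers were lower in daf-2lf, as were all 8 spermatogenic markers. The part of these shifts in the cuticlin differences was not tested.

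When daf-2lf was added to skn-1gf, most cuticlin genes that moved went up. In daf-2lf;skn-1gf against skn-1gf, 17 of 32 tested genes passed the test (53.1%), 15 higher and 2 lower, where 31.7% of all tested genes were called, 13.4% higher and 18.4% lower. The median log2 difference was 0.62, or 0.54 without cut-1, against -0.04 over all genes. The groups did not overlap for any of the 17, and for 21 of the 32 in all, against 56.3% of all tested genes. cut-2 was 6.83-fold higher (2.77 ± 0.265 (SE), adjusted p = 5.51e-06), cut-6 6.39-fold (2.68 ± 0.216 (SE), adjusted p = 1.7e-06) and cutl-8 6.4-fold (2.68 ± 0.4 (SE), adjusted p = 0.000205). Other genes with a higher level were cutl-27 (2.30 ± 0.331 (SE), adjusted p = 0.000148), cutl-5 (2.91 ± 0.615 (SE), adjusted p = 0.00288), cutl-4 (2.73 ± 0.574 (SE), adjusted p = 0.00278) and noah-2 (0.94 ± 0.271 (SE), adjusted p = 0.0182). The log2 difference of cutl-5 was 3.73 without skn-1gf replicate 1, the highest skn-1gf library, and its skn-1gf replicate 2 held 0 counts.

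The gene cutl-21 had 4.23, 5.41 and 4.22 CPM in daf-2lf;skn-1gf, 0.852, 3.05 and 4.09 CPM in daf-2lf, 1.26, 0.83 and 1.53 CPM in skn-1gf and 1.62, 1.3 and 1.99 CPM in WT. By edgeR with all libraries it was called in this comparison alone (1.91 ± 0.446 (SE), adjusted p = 0.00559), with all double-mutant libraries above all others. In daf-2lf against WT, cutl-21 was also called by limma-voom and without daf-2lf replicate 1 (log2 difference 1.02, adjusted p = 0.0105), and limma-voom called its interaction. The rest of the 15 were cut-1 and cut-5, described above, and cutl-12, cutl-14, cutl-15, cutl-17 and cutl-28, with log2 differences from 1.03 (cutl-14) to 1.76 (cutl-17). The genes that fell were cutl-3 (-1.23 ± 0.382 (SE), adjusted p = 0.0268) and cutl-16 (-1.33 ± 0.349 (SE), adjusted p = 0.0114). The call of cutl-16 was lost without daf-2lf;skn-1gf replicate 1 (adjusted p = 0.0541). That of cutl-3 was lost without skn-1gf replicate 1 or 2 or any 1 double-mutant library (adjusted p 0.051 to 0.0865), and that of cutl-12 without skn-1gf replicate 2 or 3 or any 1 double-mutant library (0.0618 to 0.114). The noah-2 call was lost without skn-1gf replicate 1 or 2 (adjusted p 0.086 and 0.0876), and that of cutl-17 without skn-1gf replicate 1 or 2 or daf-2lf;skn-1gf replicate 1 or 3 (0.0572 to 0.1). Epidermal markers summed to 2580 to 3520 CPM in daf-2lf;skn-1gf and 567 to 692 CPM in skn-1gf, with 4 of 6 higher. Most of the double-mutant sum came from dpy-13 and rol-6, with means of 1860 and 666 CPM. The part of these markers in the result was not tested.

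The daf-2lf effect thus differed with the skn-1 genotype for single genes. Setting daf-2lf against WT beside daf-2lf;skn-1gf against skn-1gf, which share no library, noah-2 and cut-1 were called higher by edgeR in both. cut-5, cutl-15 and cutl-27 were called lower in daf-2lf against WT and higher in daf-2lf;skn-1gf against skn-1gf, and cutl-3 was called higher in daf-2lf against WT and lower in daf-2lf;skn-1gf against skn-1gf. Another 10 genes, cut-2 and cut-6 among them, were called higher in daf-2lf;skn-1gf against skn-1gf and not called in daf-2lf against WT, and 8 were called higher in daf-2lf against WT and not called in daf-2lf;skn-1gf against skn-1gf. The interaction given above is also the test of this difference, and it was called for cut-5, cutl-15, cutl-27 and cutl-3. A call in a single comparison is not itself a tested difference. Among the 10 genes the interaction was not called for cutl-4, cutl-12, cutl-21 and cutl-28, and among the 8 not for noah-1 and cutl-10. It was called for the rest of both groups.

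**Figure D5:**
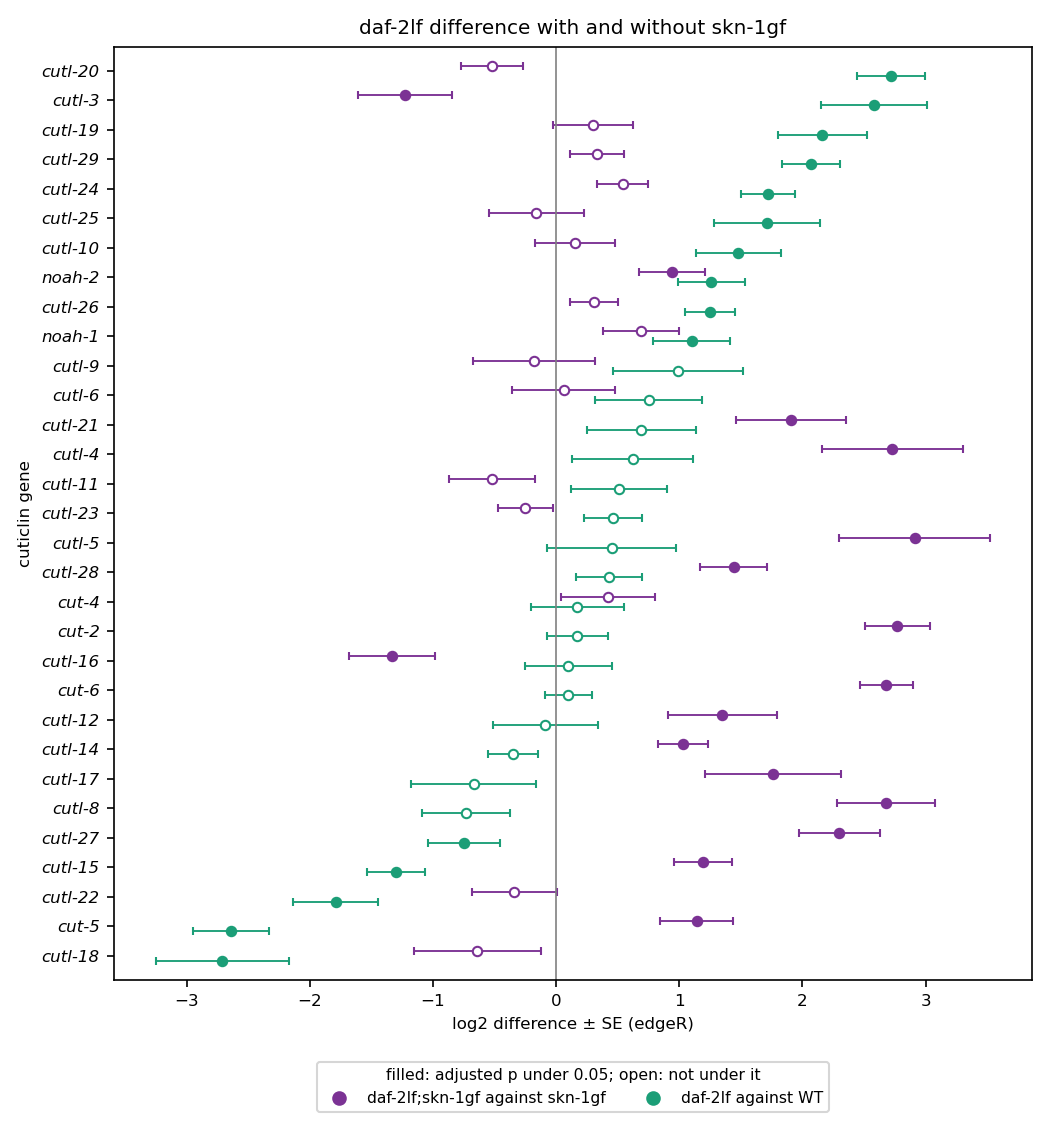
Log2 difference ± SE (edgeR) of 31 tested cuticlin genes for daf-2lf;skn-1gf against skn-1gf (purple) and daf-2lf against WT (green), filled where the adjusted p was under 0.05; cut-1 is left out because its fitted values depend on groups with 0 to 2 counts. Purple points run from -1.33 to 2.91 and green points from -2.71 to 2.72, and the genes at the bottom of the plot are lower in daf-2lf than in WT.

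Read by domain, the 6 PAN-domain genes had 1 higher and 4 lower in skn-1gf against WT, 2 higher and 2 lower in daf-2lf against WT, and 4 higher and none lower in daf-2lf;skn-1gf against skn-1gf. Their median log2 differences in these comparisons were -1.54, -0.12 and 1.19, and 43.6%, 52.4% and 31.7% of all tested genes were called in them. Of the 9 tested genes with a ZP domain alone, 5 were higher and 2 lower in skn-1gf against WT (median 1.48), 4 higher and 2 lower in daf-2lf against WT (median 0.99), and 2 higher and none lower in daf-2lf;skn-1gf against skn-1gf (median 0.06). The deposited descriptions also name a best Swiss-Prot match. Of the 5 genes matched to cut-6, cut-6 itself, cutl-5 and cutl-8 were lower in skn-1gf than in WT, cutl-12 was not called by edgeR (-1.11 ± 0.448 (SE), adjusted p = 0.0634; called in 5 of 19 alternatives, DESeq2 among them, adjusted p 0.0149 to 0.292) and cutl-23 was higher (1.02 ± 0.231 (SE), adjusted p = 0.00432). Of the 4 tested genes matched to cut-3, cutl-3, cutl-10 and cutl-16 were higher and cutl-4 was lower. These groups were small and none was tested as a set. On the WBcel235 annotation, exons of cut-3, cutl-5, cutl-6, cutl-8, cutl-11, cutl-13, cutl-15, cutl-17, cutl-18 and cutl-23 share between 9 and 84 bases with a counted gene on the opposite strand, and whether the counting used strand is not given in the sources used here.

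The lists in this and the next paragraphs were chosen with earlier results of these data known. A departure of a list from all tested genes is thus not separate evidence. Other genes of the apical matrix were read from a list of 10 genes for ZP-domain and pre-cuticle proteins, all of them tested. In skn-1gf against WT 7 were higher and 1 was lower, with a median log2 difference of 1.15 (0.03 over all tested genes), and in daf-2lf against WT likewise 7 and 1, with a median of 1.46 (0.15 over all). Of all tested genes 43.6% were called in skn-1gf against WT and 52.4% in daf-2lf against WT. fbn-1, a fibrillin-like matrix protein, averaged 648 ± 49.9 CPM in skn-1gf and 268 ± 162 CPM in daf-2lf, against 37.4 ± 33.05 CPM in WT (log2 differences 4.12 and 2.84, adjusted p = 0.000439 and 0.00217). let-653, a ZP-domain protein of narrow epithelial tubes, averaged 155 ± 5.30 CPM in skn-1gf and 86.9 ± 39.4 CPM in daf-2lf, against 21.15 ± 13.04 CPM in WT (2.87 and 2.04, adjusted p = 0.000369 and 0.00182). The matrix gene sym-1 was also higher in both (1.88 and 1.90, adjusted p = 0.00085 and 0.000433). dyf-7, a ZP-domain protein that anchors sensory dendrites, was the gene that fell: it averaged 2.15 ± 0.152 CPM in skn-1gf and 0.58 ± 0.189 CPM in daf-2lf, against 9.20 ± 1.19 CPM in WT (-2.09 and -3.99, adjusted p = 3.32e-05 and 3.57e-07). In daf-2lf;skn-1gf against skn-1gf, with 31.7% of all tested genes called, 3 were higher, ram-5, lpr-3 and egg-6, and dyf-7 was lower. Between daf-2lf;skn-1gf and daf-2lf the list had 0 calls by edgeR, DESeq2 and limma-voom, and 0 genes at an unadjusted p under 0.05.

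The enzymes, inhibitors and secreted proteins of cuticle assembly and moulting were a list of 20 genes, all tested. In skn-1gf against WT 3 were higher and 11 lower (median log2 difference -0.95, against 0.03 over all tested genes), where 22.6% of all tested genes were called higher and 21.0% lower. The moulting gene mlt-10 averaged 29.0 ± 14.8 CPM in skn-1gf and 961 ± 51.7 CPM in WT (log2 difference -5.05, adjusted p = 1.79e-06), and mlt-9 averaged 59.7 ± 10.4 CPM in skn-1gf and 365.5 ± 56.5 CPM in WT (-2.61, adjusted p = 1.79e-06). The astacin protease gene nas-6 and the peroxidase gene skpo-1 were also lower (-3.09 and -3.31, adjusted p = 3.37e-05 and 0.000344). Against skn-1gf, the double mutant had 10 of them higher and 1, the prolyl hydroxylase gene phy-3, lower. In that comparison 13.4% of all tested genes were called higher and 18.4% lower. mlt-10 averaged 283 ± 57.3 CPM in daf-2lf;skn-1gf, against its 29.0 ± 14.8 CPM in skn-1gf (3.28, adjusted p = 1.28e-05). In daf-2lf against WT 4 were higher and 5 lower, where 29.5% of all tested genes were called higher and 22.9% lower. By DESeq2 or under RLE scaling 2 were higher and 6 lower, and by limma-voom 9 and 7. Among the lower genes were phy-3 at -6.78 (adjusted p = 7.65e-06) and mlt-10 at -1.16 (adjusted p = 0.00962). Between daf-2lf;skn-1gf and daf-2lf none was called by edgeR or DESeq2, limma-voom called 1 higher, and 1 had an unadjusted p under 0.05.

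Among 14 transcription factors and timing genes of the moult and the epidermis, all tested, 6 were higher and 4 lower in skn-1gf against WT, where 43.6% of all tested genes were called. bed-3, a zinc finger factor needed for moulting, averaged 6.23 ± 1.87 CPM in skn-1gf and 99.0 ± 20.4 CPM in WT (log2 difference -3.98, adjusted p = 1.02e-06). The nuclear receptor gene nhr-41 was lower too (-1.74, adjusted p = 2.6e-06), whereas nhr-85 and the GATA factor gene elt-3 were higher (2.28 and 1.63, adjusted p = 4.7e-06 and 9.05e-05). In daf-2lf against WT, with 52.4% of all tested genes called, 7 were higher and 1 lower, with nhr-85 at 2.56 (adjusted p = 7.45e-07) and nhr-25 at 2.52 (adjusted p = 1.14e-06). By DESeq2 or under RLE scaling 5 were higher and 1 lower in that comparison, and by limma-voom 11 and 1. In daf-2lf;skn-1gf against skn-1gf, with 31.7% of all tested genes called, 7 were higher and 1 lower, with bed-3 averaging 80.4 ± 17.7 CPM in daf-2lf;skn-1gf and 6.23 ± 1.87 CPM in skn-1gf (3.68, adjusted p = 1e-06) and lin-42, the worm homologue of the clock gene period, 679.5 ± 24.1 CPM in daf-2lf;skn-1gf and 176 ± 52.6 CPM in skn-1gf (1.95, adjusted p = 5.94e-06). In daf-2lf;skn-1gf against daf-2lf none was called by edgeR, DESeq2 or limma-voom, and 1 had an unadjusted p under 0.05.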

How the data were processed

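Whole-animal RNA was measured in 12 libraries. The authors deposited 1 table of whole-number counts per gene, not normalized, and no per-sample column was left unused. RNA was prepared with TRIzol and a column kit and libraries were built by an outside company, per the labels' protocols. The submitters' processing notes name the build ce10, while the chromosome accessions in the table are those of WBcel235, and coordinates are printed as the table gives them. Of the 37 genes, 32 had the same coordinates in a RefSeq table of WBcel235. Aligner, counting program and strand handling are not given in the sources used here, so reads shared with overlapping genes cannot be assigned. Sequences of proteins and promoters were not used here.

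Groups and replicate numbers came from the sample titles. Counts were analysed in R 4.3.3 with edgeR 4.0.16: TMM scaling, the filterByExpr filter with a minimum count of 10, 1 coefficient per genotype over all 12 libraries, and quasi-likelihood F tests with Benjamini-Hochberg adjustment over 15575 genes at 0.05. CPM is the deposited count over the TMM-scaled total times 1e+06. Each SE is the log2 difference divided by the square root of F. The test was tried on simulated counts with a skn-1gf effect in few genes, no daf-2lf effect and no outlying library. That setting is simpler than these data, and no result here rests on it. DESeq2 1.42.0 and limma 3.58.1 (voom with sample quality weights), RLE scaling, no filter, a replicate block, the compared genotypes alone, a per-library length trend and leaving out each library were alternatives. Each count carries its sampling error, and the biological coefficient of variation was 23.9%.

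Values per library are given for genes with known roles (the cut and noah genes) and for up to 14 genes of mean log2 CPM of at least 1 with the largest called differences. Genes of other lists are named by the largest called differences. The genes given in detail and the lists were chosen with earlier results of these data known, while the 37 cuticlin genes were taken by name alone.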

Additional observations from a re-analysis of the deposited data

Results flagged for a closer look

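For 17 of the 32 tested cuticlin genes the skn-1gf difference itself differed between the daf-2lf and the wild-type background by the interaction test. Of all tested genes 27.7% were called by it, 9.91% positive and 17.7% negative. The values are differences of log2 differences, daf-2lf background minus WT background. The 10 positive ones were cut-5 at 3.78, cutl-8 at 3.41, cutl-27 at 3.05, cut-2 at 2.60, cut-6 at 2.58, cutl-15 at 2.50, cutl-5 at 2.46, cutl-17 at 2.44, cutl-22 at 1.45 and cutl-14 at 1.39. The 7 negative ones were cutl-3 at -3.81, cutl-20 at -3.24, cutl-25 at -1.88, cutl-19 at -1.86, cutl-29 at -1.74, cutl-24 at -1.18 and cutl-26 at -0.93.

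Among these calls, 5 were lost without single libraries: cutl-5 in 9 of 12 omissions (adjusted p 0.0547 to 0.119), cutl-22 in 9 (0.0528 to 0.103), cutl-25 in 7 (0.0569 to 0.0804), cutl-26 in 7 (0.052 to 0.0803) and cutl-17 in 6 (0.0554 to 0.0784). The other 12 were called in every alternative run.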

How the results depend on the processing

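The count of cuticlin genes called in daf-2lf;skn-1gf against daf-2lf was 2. It was 1 with the replicate block, without a call of cut-1 (log2 difference 2.58, adjusted p = 0.0776), and 0 with the compared genotypes only, where fewer libraries enter. Leaving out single libraries gave 0 to 2: 0 without daf-2lf;skn-1gf replicate 1 or 3, and 1 without daf-2lf;skn-1gf replicate 2 or daf-2lf replicate 3. Over all genes this comparison had 253 calls, against 109 with the compared genotypes only, 550 by DESeq2, 2105 by limma-voom with weights and 139 to 468 without single libraries of the 2 groups; the cause was not tested.

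The other counts stayed within 1.5 times: 22 to 28 for skn-1gf against WT, 14 to 23 for daf-2lf against WT, 13 to 23 for daf-2lf;skn-1gf against skn-1gf and 12 to 25 for the interaction. The share called over all genes moved more, from its lowest without the filter to its highest by limma-voom. In the same order it ran from 26.1% to 75.4%, 31.5% to 71.7%, 19.1% to 64.9% and 15.3% to 60.6%. By limma-voom 28, 23, 23 and 25 of the 32 cuticlin genes were called, so the excess over all genes was smaller there than these counts alone show. Calls held in all alternatives for 19 of 26, 14 of 16, 12 of 17 and 12 of 17 genes in those comparisons, and for 0 of 2 in daf-2lf;skn-1gf against daf-2lf. No call changed sign. Same-numbered libraries of different genotypes correlated at -0.129 to 0.296 in their deviations, and differently numbered ones at -0.304 to 0.177. The highest values were between skn-1gf and daf-2lf, 0.296 for replicates 3 and 0.192 for replicates 2. The labels do not say that the numbers mark pairs, and the main fit did not use them. With the replicate block the counts were 27, 15, 1, 17 and 17 in the order skn-1gf against WT, daf-2lf against WT, daf-2lf;skn-1gf against daf-2lf, daf-2lf;skn-1gf against skn-1gf and interaction. Depth left 5 genes untested, and the tested genes cutl-4, cutl-19, cutl-5 and cut-5 had 219, 226, 331 and 361 counts over the 12 libraries.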
